A study of Mus musculus with 6 samples.

Results

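The 44 genes described here encode the machinery that copies DNA in S phase, from the proteins that license origins to the enzymes that supply deoxynucleotides. They were chosen by symbol from a list of replication factors, with earlier results of these data known. The symbols were matched to the Ensembl identifiers of the count table through the GENCODE mouse annotation. All 44 were found among 56941 identifiers, and all 44 passed the filter on low counts that left 13299 genes for testing. The sample labels describe CD8+ T cells purified as naive cells from the spleens of B6 mice. All samples were activated for 3 days on plates coated with anti-CD3 and anti-CD28 in medium containing recombinant IL-2 at 100 U/ml. Vehicle (3 samples) or sphingosine 1-phosphate (S1P), a signaling lipid, at 5 µM (3 samples) was added 24 h into the culture. Poly(A)+ RNA was sequenced, and the question for these genes was whether S1P changed their transcript levels in these cultures.

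Replication begins in G1, when the origin recognition complex, Cdc6 and Cdt1 load the ring-shaped MCM helicase onto DNA. In S phase, Cdc45 and the GINS complex turn that helicase on, primase and polymerase alpha lay down primers, and polymerases delta and epsilon extend them on the PCNA sliding clamp. T cells leave quiescence and divide rapidly after stimulation of the antigen receptor, and these genes are strongly transcribed while they do so. Many of them are known targets of E2F transcription factors, which are held back by the retinoblastoma protein until cyclin-dependent kinases inactivate it.

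Sequencing depth ranged from 13636095 to 17089831 assigned counts in the vehicle-treated samples and from 12048880 to 17384084 in the S1P-treated samples. S1P replicate 2 stood apart from the other samples. Mitochondrial transcripts took 7.80% of its counts against 4.10 to 4.93% elsewhere, and its counts differed from those of the other S1P-treated samples by a chi-square per gene of 18.4 and 31.2, against 5.98 between S1P replicates 1 and 3 and 3.81 to 3.97 among vehicle-treated samples. The labels call the samples biological replicates without saying whether each came from its own mouse, so the p-values measure the spread among these cultures. T cell markers were abundant in every sample, with 8 T cell genes (Cd8a, Cd8b1 and 6 CD3 and T cell receptor genes that CD4 T cells also express) summing to 1555 to 1792 CPM (counts of a gene scaled to the TMM-adjusted library total) with vehicle and 1345 to 1484 CPM with S1P, and 3 of the 8 (Cd8a, Cd8b1 and Trbc1) fell. Cd8a measured 207 to 251 CPM with vehicle and 132 to 144 CPM with S1P, against 186 to 223 CPM and 195 to 254 CPM for Cd4, so Cd4 lay above Cd8a in all 3 S1P-treated samples and in 1 of the 3 with vehicle. B cell markers summed to 649 to 813 CPM with vehicle and 656 to 753 CPM with S1P, with 4 of 10 lower and 1 higher. The 4 CD4 T cell markers summed to 229 to 272 CPM with vehicle and 252 to 319 CPM with S1P, with 2 of 4 higher. The myeloid list summed to at most 5.88 CPM in any sample, with S100a8, S100a9 and Clec9a at 0. The part of these other cells in the results on replication genes was not tested, and in bulk RNA fewer cells of a type and less RNA per cell cannot be told apart.

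With S1P, some of the 44 genes were lower and none of the 44 passed the test as higher. The genes that fell had means 19.0% (Tyms) to 26.9% (Orc2) below those with vehicle. By edgeR's quasi-likelihood test, 7 of the 44 genes fell (adjusted p up to 0.05, log2 fold change of -0.3 or beyond) and 0 rose. The 7 were Orc2, Rpa2, Mcm2, Mcm5, Rpa1, Rfc2 and Tyms. They make up 15.9% of the list, where 10.4% of all tested genes fell and 12.7% rose by the same rule. Without the minimum fold, 11 of the 44 passed, all lower, against 13.8% lower and 14.7% higher among all tested genes. The additional 4 were Pcna, Pola2, Rfc5 and Rrm2. A further reading without any model is whether the groups overlap. All 3 S1P-treated samples lay below all 3 vehicle-treated samples for 20 of the 44 genes, above them for 1 (Pold3) and overlapped for 23, where 22.6% of all tested genes lay wholly below and 23.0% wholly above. The median log2 fold change was -0.11 over the 44 genes and 0.01 over all tested genes, with 32 genes negative and 12 positive. The range ran from -0.45 (Orc2) to 0.19 (Pold3).

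**Figure D1:**
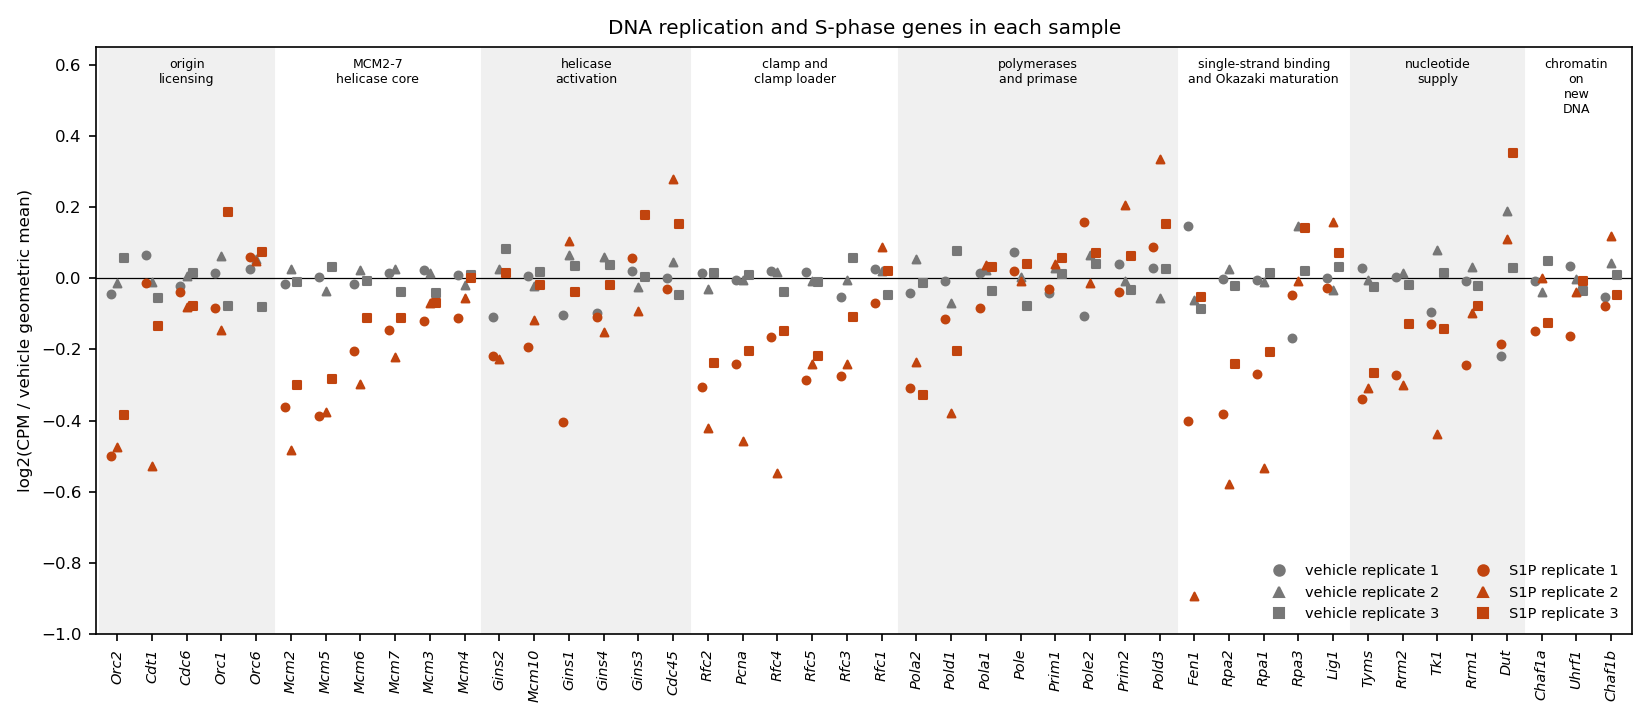
Each point is the TMM-scaled CPM of a gene in a single sample, as log2 of its ratio to the geometric mean of the vehicle-treated samples, for 44 genes grouped by role; grey marks vehicle and orange S1P, and the shape gives the replicate. Grey points lie close to 0 for most genes, while orange points lie below them for most of the MCM2-7 core and the clamp loader and scatter around 0 for helicase activation and the polymerases.

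Counts differed by role, without a test of the difference between roles. Of the 6 MCM2-7 genes, 5 lay wholly below vehicle, as did 5 of the 6 clamp and clamp loader genes and 4 of the 5 nucleotide supply genes, where 22.6% of all tested genes did so. The count was 2 of 5 for licensing, 2 of 5 for single-strand binding and Okazaki maturation and 2 of 8 for polymerases and primase. None of the 6 helicase activation genes and none of the 3 chromatin genes lay wholly below. The median log2 fold change by role was -0.33 for single-strand binding and Okazaki maturation, -0.26 for clamp and clamp loader, -0.23 for nucleotide supply, -0.18 for MCM2-7, -0.10 for helicase activation, -0.07 for chromatin, -0.06 for licensing and 0.02 for polymerases and primase. Within single samples, the median gene of the 44 stood at -0.15, -0.13 and -0.06 (log2 over the vehicle mean) in S1P replicates 1, 2 and 3, and between 0.0011 and 0.02 in the vehicle-treated samples. S1P replicate 1 held the lowest of the 3 S1P values for 22 genes, replicate 2 for 21 and replicate 3 for 1. Replicate 3 thus lay closest to vehicle, although 22 of the 44 genes were still below the lowest vehicle-treated sample there, against 33 and 29 in replicates 1 and 2. The same count over all tested genes was 37.1%, 38.9% and 36.8% in S1P replicates 1, 2 and 3. The vehicle-treated samples were tightly grouped, with a median SD of 0.036 (log2) over the 44 genes, and the S1P-treated samples spread wider, at 0.092. Over all tested genes the median SD was larger in both groups, at 0.095 with vehicle and 0.145 with S1P. The SD was larger with S1P for 37 of the 44 genes (84.1%), against 66.5% of all tested genes.

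**Figure D2:**
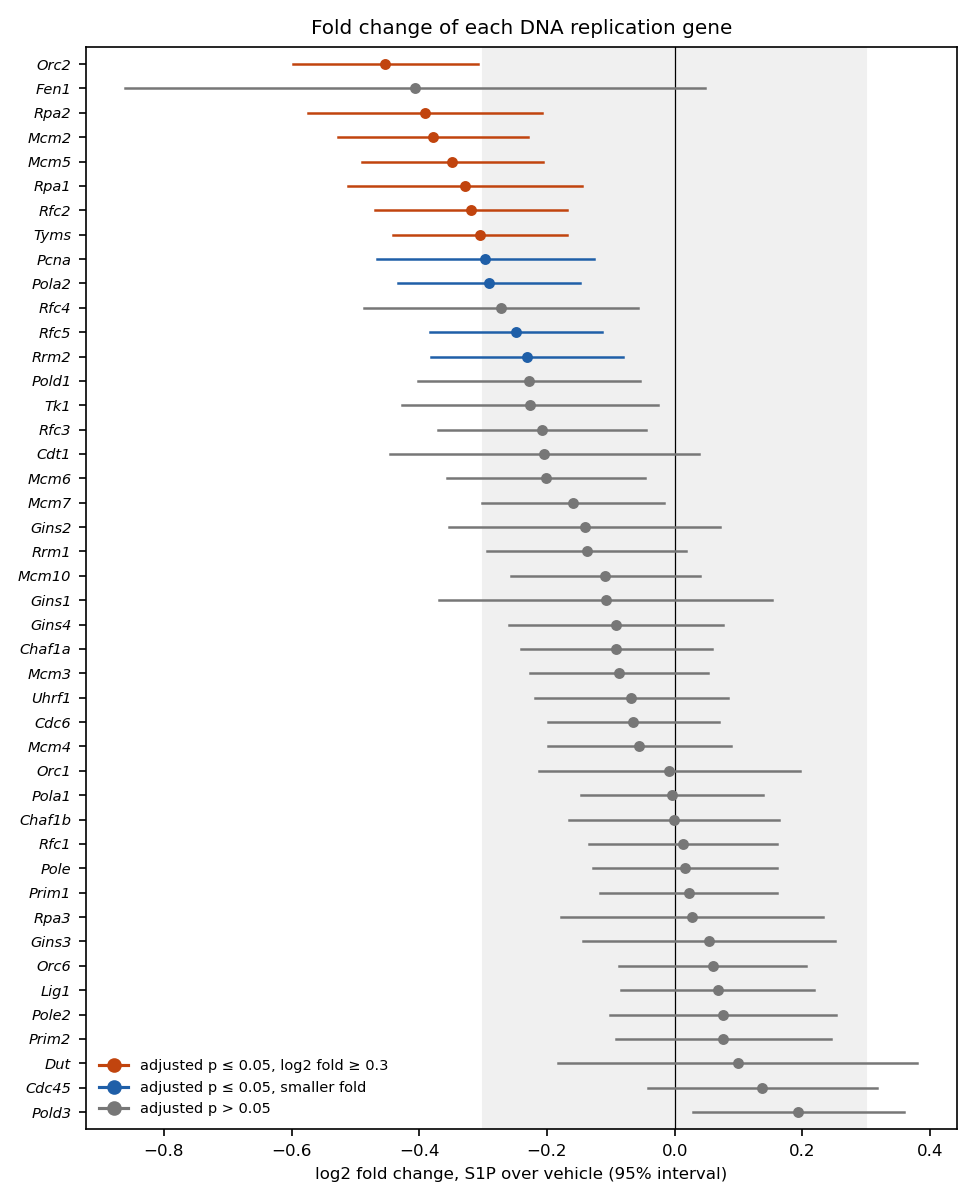
Log2 fold change of each of the 44 genes, S1P over vehicle, with its 95% interval from edgeR; orange marks genes with adjusted p up to 0.05 and a log2 fold change beyond 0.3 in size, blue the same p with a smaller fold, and the grey band spans -0.3 to 0.3. All 11 coloured genes lie left of 0, and the intervals of most grey genes cross 0.

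The promoters of these genes were read for the letters of an E2F site, since E2F is the known common regulator of the group. The words TTTCCCGC, TTTCGCGC, TTTGCCGC and TTTGGCGC were searched on both strands from 250 bases before to 50 bases after the start of each gene's canonical GENCODE transcript (GRCm39). At least 1 of them occurred in 12 of the 44 windows (27.3%), against 2.82% of 21770 protein-coding windows. The share was higher in G1 and E2F genes, with 12 of 32 windows. It was similar in the other replication genes (9 of 34) and the other chromatin genes (3 of 11). Lower shares were found in checkpoint and repair genes (4 of 32), the other nucleotide supply genes (2 of 23) and G2/M genes (1 of 47). The 12 genes held 19 such words, 12 of them between 50 bases before and 50 bases after the start. Words on opposite strands can overlap, because TTTCGCGC and TTTGGCGC end in GCGC, which reads the same on both strands. A stretch of 30 bases is printed for each of the 12 genes, 5′ to 3′ along the strand of the gene, with an E2F word in capitals. They are shown because the same element recurs in licensing, helicase, clamp loader and polymerase genes whose fold changes differed.
Cdc6, chr11:98798647-98798676, plus strand: gaaggctgaagtagagcggcTTTGGCGCga
Cdt1, chr8:123294768-123294797, plus strand: atccgcgggaactaccttTTTGGCGCcatg
Orc1, chr4:108436613-108436642, plus strand: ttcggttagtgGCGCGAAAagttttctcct
Mcm3, chr1:20890487-20890516, minus strand: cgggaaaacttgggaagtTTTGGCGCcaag
Mcm4, chr16:15455470-15455499, minus strand: ccggccccgggTTTCCCGCcaaaacgcaat
Mcm5, chr8:75835973-75836002, plus strand: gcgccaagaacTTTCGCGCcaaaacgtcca
Mcm6, chr1:128287534-128287563, minus strand: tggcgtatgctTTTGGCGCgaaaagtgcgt
Gins1, chr2:150751494-150751523, plus strand: ggttgagcctaTTTGGCGCcaaagcgagga
Rfc3, chr5:151574665-151574694, minus strand: acgtcgcacgcTTTCGCGCtcgcgggaaaa
Pola1, chrX:92675881-92675910, minus strand: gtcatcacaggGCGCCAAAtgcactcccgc
Pole, chr5:110434192-110434221, plus strand: gagagcacgtggagagcGCGCCAAAttctc
Pole2, chr12:69274936-69274965, minus strand: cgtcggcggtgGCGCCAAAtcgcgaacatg

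Of the 7 genes that fell, only Mcm5 held an E2F word in its window, against 11 of the 37 others. The log2 fold changes of the 12 genes with a word ran from -0.35 (Mcm5) to 0.08 (Pole2), and Orc1, Pola1 and Pole, each with a word, had values of -0.0082, -0.0045 and 0.02. CCAAT, the core of the NF-Y site, occurred in 25 of the 44 windows (56.8%) against 39.9% of all windows, in 4 of the 7 genes that fell and 21 of the 37 others. Shares were similar or higher in G2/M genes (31 of 47), checkpoint and repair genes (18 of 32) and the other chromatin genes (8 of 11). They were lower in the other replication genes (14 of 34), G1 and E2F genes (13 of 32) and the other nucleotide supply genes (7 of 23). TTTGAA, the core of the CHR element found in many late cell cycle promoters, occurred in 3 of the 44 windows (6.82%), against 17.1% of all windows and 22 of 47 windows of G2/M genes (46.8%). A match is a run of letters and no evidence of binding, and an absent word says only that these letters are not in the window. The 250 bases before the start are printed for Mcm5, with the overlapping E2F words and both CCAAT words in capitals, and for Orc2, the gene that fell most, where the searched E2F and CCAAT words were not found in this stretch.
Mcm5, chr8:75835890-75836139, plus strand: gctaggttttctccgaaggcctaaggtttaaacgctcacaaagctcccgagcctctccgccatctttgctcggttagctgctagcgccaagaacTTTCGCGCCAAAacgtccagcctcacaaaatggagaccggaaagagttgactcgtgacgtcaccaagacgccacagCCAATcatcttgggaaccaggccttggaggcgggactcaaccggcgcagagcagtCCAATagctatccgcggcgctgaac
Orc2, chr1:58544269-58544518, minus strand: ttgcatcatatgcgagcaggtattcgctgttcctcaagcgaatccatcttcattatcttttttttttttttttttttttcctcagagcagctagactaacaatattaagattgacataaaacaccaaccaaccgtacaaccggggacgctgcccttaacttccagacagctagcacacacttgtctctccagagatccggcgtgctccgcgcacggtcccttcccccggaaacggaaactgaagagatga

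Among the 5 licensing genes, Orc2 fell and the others did not pass the test. Orc2, a core subunit of the origin recognition complex (ENSMUSG00000026037, chr1:58497840-58544270, minus strand), stood at 118, 121 and 127 CPM in the 3 vehicle-treated samples and at 86.3, 87.8 and 93.5 CPM in the 3 S1P-treated samples. Every S1P-treated sample was below every vehicle-treated sample, and the 3 lay close together. The mean dropped from 122 ± 4.34 CPM (SD, n = 3) to 89.2 ± 3.82 CPM (SD, n = 3), a log2 fold change of -0.45 with a standard error of 0.066 (edgeR adjusted p = 0.000622), which was the largest fall of the 44. Of the bases in Orc2 exons, 20.7% lie opposite exons of Nif3l1, which stood at 29.2 CPM with vehicle and had a log2 fold change of -0.28 (adjusted p = 0.0220); the libraries are strand-specific, whether the counting used strand is not given in the sources used here, and the part of Nif3l1 reads in the Orc2 value was not tested. The regulatory subunit Orc6 stood at 77.5, 79.1 and 71.9 CPM with vehicle and at 79.3, 78.6 and 80.1 CPM with S1P, with overlapping groups and a log2 fold change of 0.06 (95% interval -0.09 to 0.21). Orc1, the ATPase subunit that marks origins, also overlapped (-0.0082, interval -0.21 to 0.20), with S1P replicate 3 the highest and S1P replicate 2 the lowest of all 6 samples. Cdt1, the MCM loading factor, stood at 65.3, 45.7 and 60.1 CPM with S1P against 63.5 to 69.0 CPM with vehicle, so that S1P replicate 2 alone was far down (log2 fold change -0.20, adjusted p = 0.193). Cdc6, the loading ATPase, lay wholly below vehicle by a small step, from 105 ± 1.35 to 100.5 ± 1.64 CPM (SD, n = 3 each), with a log2 fold change of -0.06 (adjusted p = 0.461).

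The 6 subunits of the MCM2-7 ring, which form a heterohexamer with 1 copy of each, had fold changes that were all negative but far from equal. Mcm2 (ENSMUSG00000002870, chr6:88860452-88875762, minus strand) stood at 288, 296 and 289 CPM with vehicle and at 226, 208 and 236 CPM with S1P. The groups were well apart, with S1P replicate 2 the lowest, and the log2 fold change was -0.38 with a standard error of 0.068 (edgeR adjusted p = 0.00202). Mcm5 (ENSMUSG00000005410, chr8:75836140-75856231, plus strand) stood at 347, 338 and 354 CPM with vehicle and at 265, 267 and 285 CPM with S1P. No S1P-treated sample came near the vehicle range, and the log2 fold change was -0.35 with a standard error of 0.065 (adjusted p = 0.00246). Mcm6, the most abundant of the ring per transcript length, stood at 605, 622 and 609 CPM with vehicle and at 532, 498.5 and 566.5 CPM with S1P. Its groups did not overlap, and its log2 fold change of -0.20 had an adjusted p of 0.0518. Mcm7 went from 399 ± 9.55 to 357 ± 13.7 CPM (SD, n = 3 each; log2 fold change -0.16, adjusted p = 0.0897). Mcm3 went from 421.5 ± 10.2 to 397 ± 7.87 CPM (log2 fold change -0.09, adjusted p = 0.334). Mcm4 was the 1 ring subunit whose groups overlapped, at 500.5, 490 and 500 CPM with vehicle and 460, 478 and 497 CPM with S1P (log2 fold change -0.06, 95% interval -0.20 to 0.09).

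The genes that turn the loaded ring into an active helicase did not pass the test in either direction, and the groups overlapped for all 6. Cdc45, the helicase cofactor, stood at 97.0, 100.0 and 93.8 CPM with vehicle and at 94.9, 118 and 108 CPM with S1P. Its S1P replicates 2 and 3 were above and replicate 1 within the vehicle range, giving a log2 fold change of 0.14 (95% interval -0.04 to 0.32). The 4 GINS genes ran from -0.14 (Gins2) to 0.05 (Gins3), with Gins1 at -0.11 and Gins4 at -0.09. Gins1 was scattered with S1P, at 24.1, 34.3 and 31.1 CPM against 29.7 to 33.4 CPM with vehicle. Gins2 has 67.3% of its exon bases opposite exons of Gse1, the largest such share of the 44, and the part of Gse1 reads in its value was not tested. Mcm10, which bridges the helicase and the primase, went from 121 ± 1.66 to 112 ± 6.83 CPM (SD, n = 3 each; log2 fold change -0.11, adjusted p = 0.254).

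Of the 6 clamp and clamp loader genes, Rfc2 fell, Pcna and Rfc5 passed the p threshold with a smaller fold, and Rfc1, Rfc3 and Rfc4 did not pass. Pcna, the clamp itself (ENSMUSG00000027342, chr2:132091082-132095234, minus strand), stood at 591, 591 and 597 CPM with vehicle and at 501, 432 and 515 CPM with S1P. The vehicle-treated samples were almost identical and every S1P-treated sample lay well under them, with replicate 2 the lowest. Its log2 fold change of -0.30 (standard error 0.078, adjusted p = 0.0148) was just short of the minimum size before rounding, and 35.9% of the 31-base words of its transcript also occur in other annotated genes, AV099323, Pcna-ps2 and Gm29809. AV099323 lies opposite 20.8% of Pcna exon bases and rose by 1.51 on the log2 scale from 0.590 CPM with vehicle (adjusted p = 0.0209), and the part of its reads in the Pcna value was not tested. Rfc2 (ENSMUSG00000023104, chr5:134610220-134630661, plus strand) stood at 99.5, 96.3 and 99.5 CPM with vehicle and at 79.6, 73.5 and 83.5 CPM with S1P. The groups were separate, and the log2 fold change was -0.32 with a standard error of 0.069 (adjusted p = 0.00571). Of Rfc2 exon bases, 24.3% lie opposite Lat2, which stood at 8.65 CPM with vehicle. Rfc5 passed the p threshold with a smaller fold, from 116 ± 1.31 to 97.4 ± 2.33 CPM (SD, n = 3 each; log2 fold change -0.25, adjusted p = 0.0117), and has 41.4% of its exon bases opposite Wsb2, whose log2 fold change was -0.34 (adjusted p = 0.0150). The part of Lat2 and Wsb2 reads in these values was not tested. Rfc4 (-0.27, adjusted p = 0.0582; 29.0% of exon bases opposite other genes, among them Eif4a2) and Rfc3 (-0.21, adjusted p = 0.0571) lay wholly below vehicle without passing. Rfc1, the large subunit, stood at 256.5, 255.6 and 244 CPM with vehicle and at 240, 268 and 255.6 CPM with S1P, overlapping throughout (log2 fold change 0.01, 95% interval -0.13 to 0.16).

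None of the 8 polymerase and primase genes fell or rose by both thresholds, and their fold changes went both ways. Pola2, the regulatory B subunit of polymerase alpha, stood at 113, 121 and 116 CPM with vehicle and at 94.4, 99.3 and 93.0 CPM with S1P. The groups were separate, and it passed the p threshold at a log2 fold change of -0.29 (standard error 0.065, adjusted p = 0.00673). Its partners overlapped between groups: Pola1, the catalytic subunit, had a log2 fold change of -0.0045 (95% interval -0.15 to 0.14), Prim1, the catalytic primase subunit, 0.02 (-0.12 to 0.16), and Prim2, the large primase subunit, 0.08 (-0.09 to 0.24). Pold1, the catalytic subunit of polymerase delta, stood at 97.0, 93.1 and 103 CPM with vehicle and at 90.1, 75.0 and 84.6 CPM with S1P, all 3 below vehicle (log2 fold change -0.23, adjusted p = 0.0507). Pold3, an accessory subunit of the same enzyme, stood at 146, 137 and 145 CPM with vehicle and at 151, 180 and 159 CPM with S1P. It was the single gene of the 44 with every S1P-treated sample above every vehicle-treated sample, at a log2 fold change of 0.19 (adjusted p = 0.0760). Pole, the catalytic subunit of the leading-strand polymerase epsilon, and its partner Pole2 overlapped, at 0.02 (95% interval -0.13 to 0.16) and 0.08 (-0.10 to 0.25).

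Replication protein A, the trimer that coats single-stranded DNA, had lower transcript levels of its large and middle subunits. Rpa2 (ENSMUSG00000028884, chr4:132495643-132506063, plus strand) stood at 88.2, 89.9 and 87.1 CPM with vehicle and at 67.9, 59.2 and 74.8 CPM with S1P. The groups were far apart, and S1P replicate 2 was the lowest (log2 fold change -0.39, standard error 0.084, adjusted p = 0.00549). Rpa1 (ENSMUSG00000000751, chr11:75188992-75239455, minus strand) stood at 305, 304.5 and 309.5 CPM with vehicle and at 254, 212 and 266 CPM with S1P. The same sample was lowest, and the log2 fold change was -0.33 (standard error 0.084, adjusted p = 0.0130). The small subunit Rpa3 stood at 37.8, 46.9 and 43.0 CPM with vehicle and at 41.1, 42.2 and 46.8 CPM with S1P, within the vehicle range in every sample (log2 fold change 0.03, 95% interval -0.18 to 0.23). Lig1, the ligase that seals Okazaki fragments, overlapped at 304 ± 6.64 and 318 ± 20.4 CPM (SD, n = 3 each; log2 fold change 0.07). Fen1, the flap nuclease, was counted at 5.59, 4.84 and 4.76 CPM with vehicle and 3.83, 2.72 and 4.87 CPM with S1P. Its log2 fold change of -0.41 was the lowest after that of Orc2 but had a standard error of 0.21 and an edgeR adjusted p of 0.165. Leaving out a sample gave values from -0.61 to -0.24. Of Fen1 exon bases, 65.9% lie opposite Tmem258 and Gm10143. The part of reads from those genes in its value was not tested.

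Among the 5 nucleotide supply genes, Tyms, which makes thymidylate, fell. Tyms (ENSMUSG00000025747, chr5:30263198-30278633, minus strand) stood at 128, 125 and 124 CPM with vehicle and at 99.4, 102 and 105 CPM with S1P. Both groups were narrow and separate, with a log2 fold change of -0.30 (standard error 0.062, adjusted p = 0.00426). Rrm2, the cell cycle-regulated small subunit of ribonucleotide reductase, stood at 389, 392 and 383 CPM with vehicle and at 321, 315 and 355 CPM with S1P. The groups did not overlap, and Rrm2 passed the p threshold with a smaller fold (-0.23, standard error 0.069, adjusted p = 0.0269); 43.3% of its exon bases lie opposite Gm59512, which did not pass the filter on low counts. Rrm1, the large subunit, went from 655 ± 12.7 to 595.5 ± 36.9 CPM (SD, n = 3 each; log2 fold change -0.14, adjusted p = 0.172), and Tk1, the thymidine salvage kinase, from 66.0 ± 4.03 to 56.2 ± 6.58 CPM (-0.23, adjusted p = 0.0847), both wholly below vehicle. Dut, which removes dUTP, was the most variable with vehicle, at 137, 182 and 163 CPM, and overlapped at 140.5, 173 and 204 CPM with S1P (log2 fold change 0.10, 95% interval -0.18 to 0.38).

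The 3 genes that restore chromatin behind the fork overlapped between groups. Uhrf1, which guides maintenance DNA methylation, stood at 479, 467 and 456 CPM with vehicle and at 418, 455 and 465 CPM with S1P (log2 fold change -0.07). Chaf1a and Chaf1b, subunits of the chromatin assembly factor CAF-1, had log2 fold changes of -0.09 (95% interval -0.24 to 0.06) and -0.0013 (-0.17 to 0.16). Chaf1a has 51.0% of its exon bases opposite Ubxn6.

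Because several of these genes encode subunits that work in fixed proportion, the ratio of their counts was taken within each sample, which removes any difference in scaling between libraries. Of 47 pairs within 10 complexes, 26 had ratios that did not overlap between groups. Single genes already lay wholly below vehicle in 22.6% and wholly above in 23.0% of all tested genes, and no share was computed for pairs of other genes, so the count is not read as a trait of these complexes. With 3 samples against 3, the two-sided exact permutation test cannot go below p = 0.1, which all 26 reached, and adjusted over the 47 pairs this became 0.181. In the MCM2-7 ring 11 of 15 pairs separated. The Mcm2 to Mcm4 ratio was 0.575, 0.604 and 0.578 with vehicle and 0.492, 0.436 and 0.475 with S1P, a log2 difference of -0.33. The Mcm4 to Mcm5 ratio was higher in every S1P-treated sample, at 1.41 to 1.45 with vehicle and 1.74 to 1.79 with S1P (difference 0.29), whereas the ratio of Mcm2 to Mcm5 overlapped (-0.03). The ratios of Mcm6 to Mcm7 and of Mcm3 to Mcm4 overlapped as well. In order of fold change, Mcm2 and Mcm5 were farthest below vehicle, Mcm6 and Mcm7 came between, and Mcm3 and Mcm4 were nearest to it.

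**Figure D3:**
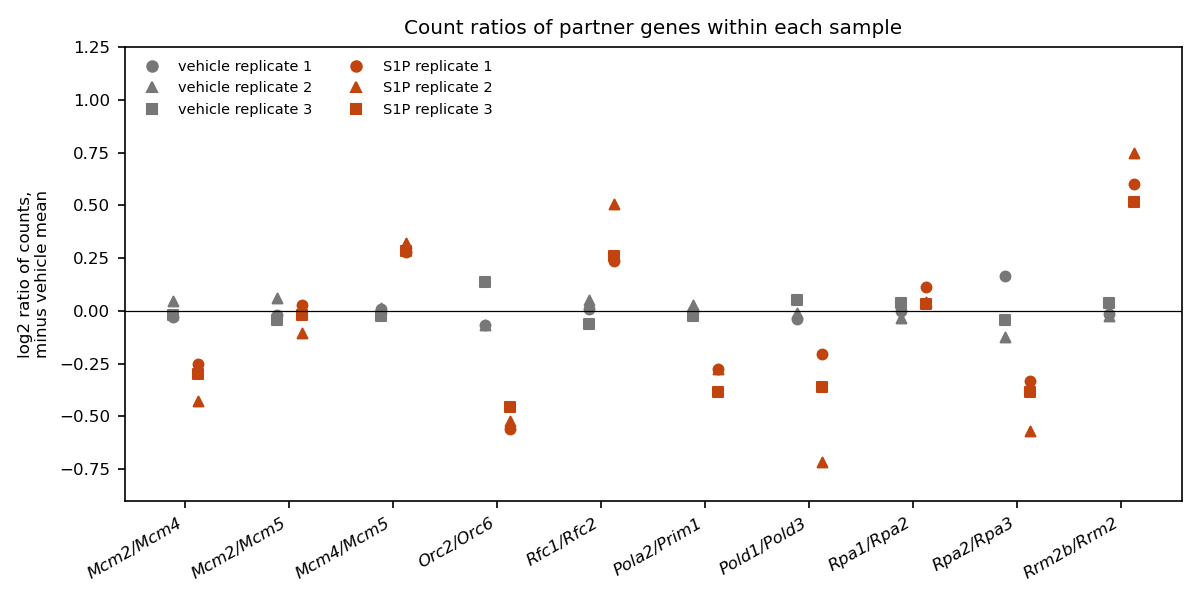
Log2 ratio of the counts of partner genes in each sample, minus the mean of the vehicle-treated samples, for 10 pairs; grey marks vehicle, orange S1P and the shape the replicate. Mcm2/Mcm5 and Rpa1/Rpa2, pairs of genes that both fell, stay near 0, while the orange points of the other 8 pairs lie apart from the grey ones in all 3 S1P-treated samples. The 10 pairs are a selection, whereas 26 of all 47 pairs separated. Rrm2b/Rrm2 is not among the 47, and other overlapping pairs, such as Mcm6/Mcm7 and Pole/Pole2, are not drawn.

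Ratios also separated in other complexes. The Orc2 to Orc6 ratio was 1.53, 1.53 and 1.76 with vehicle and 1.09, 1.12 and 1.17 with S1P, the largest difference of the 47 pairs (-0.51). Rfc1 was higher relative to each of Rfc2, Rfc3, Rfc4 and Rfc5, by 0.22 to 0.33 on the log2 scale, and none of the 6 pairs among those 4 small subunits separated. In polymerase alpha and primase, Pola2 was lower relative to Prim1 (-0.31) and to Prim2 (-0.37), and Pola1 was higher relative to Pola2 (0.29). Pold1 was lower relative to Pold3 (-0.43). In RPA, both Rpa1 (-0.37) and Rpa2 (-0.43) were lower relative to Rpa3, and Rpa1 to Rpa2 overlapped (0.06). In GINS 1 of 6 pairs separated, Gins2 to Gins3 (-0.19), and the single pairs of polymerase epsilon and CAF-1 overlapped. Ribonucleotide reductase can use a second small subunit, Rrm2b, a p53 target that serves cells outside S phase. Rrm2b rose from 21.3, 21.3 and 21.7 CPM with vehicle to 27.0, 29.2 and 28.1 CPM with S1P (log2 fold change 0.39, adjusted p = 0.00539; 0.29 with a GC offset, short of the minimum size). The Rrm2b to Rrm2 ratio went from 0.0545 to 0.0568 with vehicle to 0.0792 to 0.0928 with S1P, a log2 difference of 0.62 for this pair, which is not counted among the 47.

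Levels were compared between genes as CPM per kilobase of the canonical transcript. With vehicle, Pcna was the highest of the 44 at 391 ± 1.92 CPM per kilobase (SD, n = 3), followed by Mcm6 at 206 ± 3.05, Rrm2 at 148 ± 1.73, Rrm1 at 138 ± 2.68, Mcm7 at 135 ± 3.22 and Uhrf1 at 129 ± 3.15 CPM per kilobase. Rrm1 and Mcm7, and Mcm7 and Uhrf1, differed by less than the sum of their SDs. The ring subunits covered a wide range per kilobase, with Mcm4 at 96.7, Mcm2 at 86.3, Mcm3 at 77.6 and Mcm5 at 75.3 CPM per kilobase, where Mcm3 and Mcm5 differed by less than the sum of their SDs. The origin recognition genes were lower, at 45.1 (Orc6), 34.3 (Orc2) and 14.2 (Orc1) CPM per kilobase. The lowest levels were those of Gins3 (10.5), Gins2 (7.12) and Fen1 (1.93 CPM per kilobase), of which Gins2 and Fen1 have most of their exon bases opposite other genes. Whether that overlap added reads to these 2 levels or removed reads from them was not tested. The 7 genes that fell held ranks 9 (Mcm2), 11 (Mcm5), 15 (Rpa1), 17 (Rpa2), 23 (Tyms), 27 (Orc2) and 39 (Rfc2) of the 44 by level, so they were neither the most nor the least abundant.

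**Figure D4:**
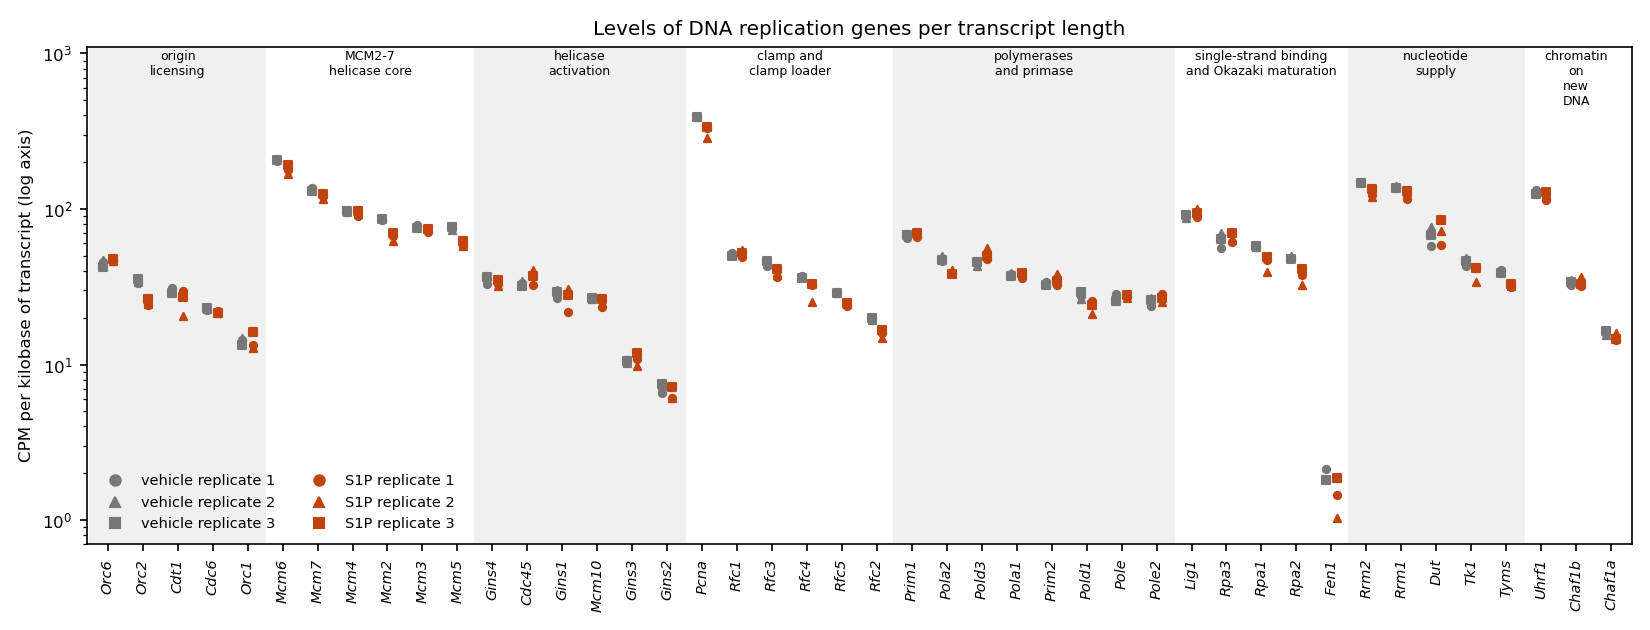
TMM-scaled CPM per kilobase of canonical transcript for each of the 44 genes in each sample, on a log axis, grouped by role and ordered by the vehicle mean within a role; grey marks vehicle and orange S1P. Pcna is highest near 391 with vehicle and Fen1 lowest near 1.93.

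The rest of the replication pathway, listed alongside the 44, had 66 tested genes of which 17 fell and 3 rose, with a median log2 fold change of -0.09. That is 25.8% lower and 4.55% higher, against 10.4% and 12.7% of all tested genes, in lists chosen with earlier results of these data known. Most of the falls, 12 of the 17, were in nucleotide supply genes. Of 22 such genes tested, 12 fell (54.5%) and 2 rose (9.09%), with a median of -0.37. The largest falls were in Cad, which starts pyrimidine synthesis (-0.75, adjusted p = 0.00134), the nucleoside diphosphate kinase Nme1 (-0.70, adjusted p = 0.000439), Shmt1, which feeds the thymidylate cycle (-0.68, adjusted p = 0.000101), Gart of purine synthesis (-0.63, adjusted p = 0.000273), the dCTP pyrophosphatase Dctpp1 (-0.62, adjusted p = 0.00117) and Umps of pyrimidine synthesis (-0.59, adjusted p = 0.00017). Cad stood at 357, 337 and 314 CPM with vehicle and at 225, 152 and 222 CPM with S1P, a larger fold change than that of any of the 44. Of 33 further replication factors 6.06% were lower and 3.03% higher, both shares below those of all tested genes, without a test of the difference. Of these, 2 fell, Pole4 of polymerase epsilon (-0.41) and the alternative clamp loader subunit Chtf18 (-0.33), and 1 rose, the small polymerase delta subunit Pold4, from 13.43, 10.93 and 12.02 CPM to 20.3, 25.7 and 16.7 CPM (0.78, adjusted p = 0.00303). Of 11 chromatin and histone supply genes, 3 fell (27.3%), Asf1a (-0.38), Rbbp4 (-0.33) and Cdca7 (-0.30), and 0 rose. Exon bases lie opposite Mcm9 for 62.6% of Asf1a and opposite Sync for 25.1% of Rbbp4. The share opposite other genes was 20.9% for Chtf18 and 20.6% for Gart. The part of reads from those genes in these values was not tested.

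**Figure D5:**
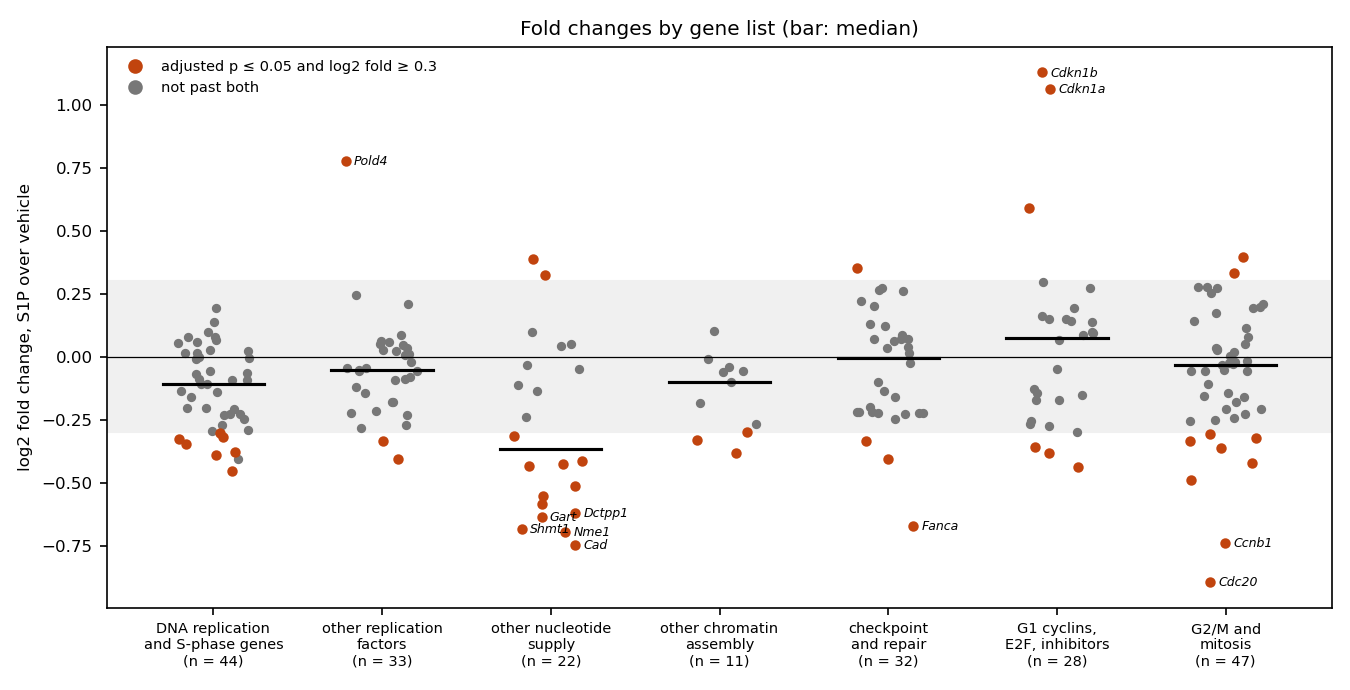
Log2 fold change, S1P over vehicle, of each tested gene in 7 lists, with a bar at the list's median, the grey band from -0.3 to 0.3 and orange for genes past both thresholds. The 44 genes cluster between -0.45 and 0.19, the other nucleotide supply genes reach -0.75 with a median of -0.37, and Cdkn1a and Cdkn1b stand above 1.

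Of 28 tested genes of the G1 cyclin, E2F and inhibitor list, which act before S phase, 3 fell and 3 rose, 10.7% in each direction. These shares were close to the 10.4% and 12.7% of all tested genes. Cdkn1b, encoding the kinase inhibitor p27, rose from 54.0, 60.6 and 52.7 CPM to 118, 128 and 119 CPM (log2 fold change 1.13, adjusted p = 1.1e-05), and Cdkn1a, encoding p21, from 42.9, 38.7 and 35.6 CPM to 89.4, 82.0 and 73.3 CPM (1.06, adjusted p = 3.65e-05). Cdkn2d, encoding p19, also rose (0.59). Ccne1, the S phase entry cyclin, fell from 77.5, 92.5 and 84.8 CPM to 64.4, 59.2 and 64.1 CPM (-0.44, adjusted p = 0.00221), as did the E2F partner Tfdp1 (-0.36, adjusted p = 0.00171) and E2f6 (-0.38, adjusted p = 0.00474).

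Of the 7 calls, 4 held in every fit. Orc2, Rpa2, Mcm2 and Mcm5 passed both thresholds in all 6 fits that left out a sample and in all 10 other fits, with adjusted p-values of at most 0.0270. Rpa1 was lost without S1P replicate 2 (-0.24) or vehicle replicate 3 (-0.32), the latter on its adjusted p of 0.0548. Rfc2 was lost without S1P replicate 2 (-0.27), and Tyms without vehicle replicate 1 (-0.29) or S1P replicate 1 (-0.29), at fold changes that miss the minimum size. With upper-quartile scaling Rfc2 (-0.30) and Tyms (-0.28) also missed it, as did Rfc2 with a GC offset (-0.28). Pcna passed both thresholds in 8 of the 10 other fits and in 2 of the 6 that left out a sample, Pola2 in 2 of 10 and 2 of 6, and Cdt1 and Rfc4 in 0 of 10 and 1 of 6 each. Without S1P replicate 1, Cdt1 (-0.32), Rfc4 (-0.33) and Pcna (-0.33) passed, and without S1P replicate 3, Pcna did so again (-0.35). Over the 6 fits that left out a sample, Cdt1 ran from -0.32 to -0.07, Rfc4 from -0.34 to -0.16 and Pcna from -0.35 to -0.22. Pola2 passed without vehicle replicate 1 (-0.31) or S1P replicate 2 (-0.32). Without S1P replicate 2, the sample that stood apart, 6 of the 44 genes fell, 5 of them among the 7 and the sixth Pola2, where 9.17% of all genes tested in that fit fell. In the rest of the replication pathway, the calls of Pole4 (-0.28), Chtf18 (-0.26), Asf1a (-0.30), Rbbp4 (-0.23) and Cdca7 (-0.25) were lost without that sample. Pole4 was also lost without vehicle replicate 1 (-0.40) or 3 (-0.41), Chtf18 without vehicle replicate 1 (-0.31) or 3 (-0.33) or S1P replicate 3 (-0.36), Asf1a without vehicle replicate 2 (-0.29) and Rbbp4 without vehicle replicate 1 (-0.33) or 3 (-0.32). A GC offset lost Chtf18 (-0.27) and Cdca7 (-0.27), and upper-quartile scaling (-0.28) or a minimum of 10 counts in every sample (-0.30) lost Cdca7. The calls of the 6 named nucleotide supply genes that fell held in every fit.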

How the data were processed

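The deposited file holds raw counts per Ensembl gene for the 6 libraries, which the authors made from strand-specific poly(A)+ libraries. The submitters' processing notes name Trim Galore, STAR, featureCounts, DESeq2 and genome build GRCm39. Versions, and whether reads were counted by strand, are not given in the sources used here. Symbols came from GENCODE (GRCm39). Counts were tested with edgeR 4.0.16 in R 4.3.3 (TMM factors, filterByExpr, quasi-likelihood test, no covariate, 4 residual degrees of freedom), with Benjamini-Hochberg adjustment over 13299 genes. Genes were called at adjusted p up to 0.05 when the log2 fold change also reached 0.3 in either direction. CPM values use TMM library sizes, and levels divide by canonical transcript length. The script was tested on simulated data. Alternatives were DESeq2 1.42.0, limma-voom (limma 3.58.1), other scalings and filters, a GC offset, a replicate block and leaving out each sample. The 44 genes and the other lists were chosen with earlier results of these data known. Named genes are all 44 and, of each other list, up to 6 called genes with the largest fold change and the extremes. Intervals cover 95%. Groups came from the sample titles.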

Additional observations from a re-analysis of the deposited data

How the results depend on the processing

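Between 5 and 9 of the 44 genes were called across the scalings, filters, tests and left-out samples, with none higher in any. The share of all tested genes called lower was 7.12% to 11.4% in these fits, apart from 4.67% with no filter on low counts (9 of the 44). The 5 calls, 11.4% of the 44, came with upper-quartile factors, where the share of all genes was 9.07%. With no minimum fold, 11 were called, all lower, with 19 of the G2/M genes (14 lower, 5 higher) in place of 10 and 12 of the G1 and E2F genes (7 lower, 5 higher) in place of 6, where 13.8% of all tested genes were lower and 14.7% higher. Leaving out a sample gave 6 to 9 calls among the 44 genes, 6 to 10 among the G1 and E2F genes and 2119 to 3228 among all genes. The median log2 fold change of the 44 then ran from -0.157 to -0.0816. It was lowest without S1P replicate 3, and the 10 G1 and E2F calls came from that same fit. The median of all tested genes moved to 0.159 with no filter on low counts. With a replicate block 8 of the 44 were called, Pcna being added, against 10.7% of all genes, and 20 of the other replication pathway genes, as without it. Deviations of same-numbered samples correlated at 0.120, -0.0060 and 0.0483, and those of differently numbered samples at -0.100 to 0.0496. With 3 samples a group, these values cannot show whether the numbers mark pairs.

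Genes close to 0 changed sign, and none of these was called. Under upper-quartile factors Orc1 was at 0.015, Pola1 at 0.0186 and Chaf1b at 0.0219. With total counts only Rfc1 was at -0.0166, Pole at -0.0108 and Prim1 at -0.0057. With no filter Rfc1 was at -0.0189, Pole at -0.0131, Prim1 at -0.0083 and Rpa3 at -0.0015. With 10 counts in every sample Chaf1b was at 0.0024. A GC offset gave Uhrf1 0.0051, Chaf1b 0.04998, Rfc1 -0.0168, Prim1 -0.0279 and Rpa3 -0.13, and with the replicate block as well 0.0021, 0.0477, -0.0172, -0.0277 and -0.127. Leaving out a sample moved Gins1 from -0.22 to 0.0321, Orc1 from -0.121 to 0.0521, Pola1 from -0.0308 to 0.0339, Chaf1b from -0.0612 to 0.0367, Rfc1 from -0.0239 to 0.0526, Pole from -0.0238 to 0.0508, Prim1 from -0.0036 to 0.0479, Rpa3 from -0.0561 to 0.0979, Gins3 from -0.0187 to 0.116 and Dut from -0.0489 to 0.228. The cause was not tested. With 3 samples a group, fold changes smaller than their intervals were not detectable.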

Other observations

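Of 32 checkpoint and repair genes tested, 3 fell (9.38%) and 1 rose (3.13%), beside backgrounds of 10.4% and 12.7% of all tested genes. Fanca, of the Fanconi anemia core complex, fell from 33.6, 32.1 and 37.7 CPM with vehicle to 24.9, 15.3 and 24.2 CPM with S1P (log2 fold change -0.67, edgeR adjusted p = 0.00661). Of Fanca exon bases, 29.7% lie opposite Zfp276 and Gm64163, and the part of their reads in its value was not tested. Ung, which removes uracil from DNA, fell from 55.2, 53.0 and 55.2 to 39.6, 40.5 and 43.3 CPM (-0.41, adjusted p = 0.0019), and the checkpoint clamp subunit Hus1 fell by 0.34 on the log2 scale. Atr, the kinase that responds to stalled forks, rose by 0.35 (adjusted p = 0.0106). The calls of Hus1 (-0.27) without S1P replicate 2 (or vehicle replicate 2, -0.30) and of Atr without S1P replicate 1 (0.30) or vehicle replicate 3 (0.27) were lost. A GC offset also lost that of Atr (0.22).

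Of 47 G2/M and mitosis genes, 8 fell (17.02%) and 2 rose (4.26%), beside 10.4% and 12.7% of all tested genes, with a median of -0.03. Cdc20, the activator of the anaphase-promoting complex, went from 117, 109 and 112 CPM to 70.0, 48.9 and 61.9 CPM (-0.90, adjusted p = 0.000193), and Ccnb1, mitotic cyclin B1, from 170, 173 and 169 CPM to 113, 88.9 and 104 CPM (-0.74, adjusted p = 0.000135). Both groups were fully separate for each gene. Wee1 (-0.49), Espl1 (-0.42) and Cdc25c (-0.36) also fell, Cdc25c losing its call without S1P replicate 2 (-0.30), vehicle replicate 2 (-0.33) or vehicle replicate 3 (-0.33). The spindle gene Nusap1 rose from 174, 176 and 184 CPM to 225, 246 and 233 CPM (0.40, adjusted p = 0.00124).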
